A study of Mus musculus with 12 samples.

Results

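Inflammatory secreted factors and prostaglandin synthesis were represented by 10 genes, Ptgs2, Ptges, Il6, Cxcl1, Cxcl5, Ccl2, Ccl7, Il1rl1, Lcn2 and Tnfsf18. Of the 10, 9 had a probe set that named only that gene, 1 probe set each, among 22180 genes named in this way on the array. No probe set carried the name Il1rl1, the receptor of interleukin 33, and it is not analysed here. The genes were chosen because Ptgs2 and Tnfsf18 were among the largest falls from day 3 to day 6, so the members were chosen by the measured differences between the days, which are given as a description, with no test. The comparison of the hairpins was not used in that choice and was tested.

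Prostaglandins are lipid signals made from arachidonic acid, which phospholipase A2 releases from membranes. Cyclooxygenase 2, the product of Ptgs2, turns it into the precursor prostaglandin H2, and the terminal synthase encoded by Ptges makes prostaglandin E2 from that precursor. Fibroblasts are known to make prostaglandin E2, interleukin 6 and chemokines when they are stimulated by serum, injury or cytokines such as interleukin 1 and tumour necrosis factor. Cxcl1 and Cxcl5 encode chemokines that draw neutrophils, and Ccl2 and Ccl7 encode chemokines that draw monocytes. Lcn2 encodes lipocalin 2, a secreted protein that binds bacterial siderophores, and Tnfsf18 encodes the ligand of the T cell receptor GITR.

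Expression was measured on 12 microarrays, 3 in each of 4 groups. All samples were mouse embryonic fibroblasts of mixed C57Bl/6 and 129X1/SvJ strain, from E13.5 embryos, and carried the alleles Col1a1::tetOP-OKSM and R26-M2rtTA. With these alleles doxycycline switches on the reprogramming factors Oct4, Klf4, Sox2 and c-Myc. The control groups carried a retroviral hairpin against Renilla luciferase, which the mouse genome lacks, and the knockdown groups carried a hairpin against Chaf1a, the large subunit of the histone chaperone CAF-1. Both were sampled at day 3 and at day 6 of doxycycline, in medium with serum and LIF, so all 4 groups shared the induced factors, doxycycline, infection, serum and LIF. No cells sampled before induction are among the 4 groups. Whether the 3 replicates of a group were separate cultures or separate embryos is not in the labels, so p-values measure only the spread between these samples, which may be technical. The labels likewise leave out whether embryos were pooled and how many hairpins were used.

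The libraries were examined before the members. Chaf1a averaged, in log2 intensity, 7.53 ± 0.17 (SD, n = 3) in the controls against 7.24 ± 0.09 in the knockdown at day 3, and 7.22 ± 0.14 against 7.10 ± 0.06 at day 6. At either time all 3 same-number pairs had the knockdown array lower, and limma's adjusted p was 0.726 at day 3 and 0.999 at day 6. The fibroblast label was checked by level, since markers of other cell types passed the filter on low values as well. As group means, Vim was at 13.3, Fn1 at 12.3 to 12.4, Col1a2 at 11.3 to 11.5 and Col1a1 at 10.6 to 10.9, against array medians of 5.30 to 5.44, while Pdgfra, at 5.18 to 5.49, was near those medians and Lum did not reach the filter level on any array. Level alone did not separate the marker lists. The endothelial marker Tek was at 9.89 to 10.1 and the macrophage marker Cd68 at 7.70 to 9.09. The fibroblast marker Thy1 was at 9.64 to 9.82. In all, 3 arrays stood apart. Of these, replicate 2 of the day 3 knockdown had an interferon-stimulated gene score of 1.38, against −0.26 to −0.026 in the other 11 arrays, where the score is the mean log2 value of the listed genes relative to each gene's own mean. Values of day 3 knockdown are therefore also given without that array, called the interferon-high array. The same score over the fibroblast markers was 0.43 in replicate 1 of the day 6 controls and 0.36 in replicate 1 of the day 6 knockdown, against −0.16 to 0.046 in the others, so comparisons of the days are also given without these 2 arrays, each left out of its own comparison.

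A probe set counted as above the low-value filter when it reached its own array's 30th percentile, at log2 intensities between 4.30 and 4.38, in at least 3 arrays. All 9 measured members passed, among 17860 genes, but Il6 did so with only 4 arrays, 2 of day 3 control and 2 of day 3 knockdown. Tnfsf18 was at or above the level in all 6 arrays of day 3 and in 0 of 6 arrays of day 6. Both passed through the day at which they were higher. The other 7 members were above the level on all 12 arrays.

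Promoter windows of 250 bases before to 50 bases after the annotated start were in the RefSeq table for 6 of the 9 measured members (build GRCm38.p6), and not for Cxcl5, Ccl2 or Ccl7. Of these, 4 are shown, Ptgs2 and Tnfsf18 because they were chosen for their falls, and Il6 and Cxcl1 because they held a match to the NF-kB motif. The windows lie at chr1:150099781-150100080 (Ptgs2), chr1:161494407-161494706 (Tnfsf18), chr5:30012864-30013163 (Il6) and chr5:90890995-90891294 (Cxcl1), all on the plus strand. Capitals mark matches to any of the motifs searched on both strands, which were NF-kB (GGANTNTCC), C/EBP (TTNNGNAA), AP-1 (TGANTCA) and the TATA box (TATAAA).
Ptgs2: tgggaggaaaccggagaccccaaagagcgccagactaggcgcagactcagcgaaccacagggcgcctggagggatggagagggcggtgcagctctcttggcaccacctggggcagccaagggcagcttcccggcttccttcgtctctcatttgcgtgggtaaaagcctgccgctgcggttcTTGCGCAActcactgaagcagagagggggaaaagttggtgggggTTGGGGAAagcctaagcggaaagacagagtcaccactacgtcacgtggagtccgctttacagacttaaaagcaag
Tnfsf18: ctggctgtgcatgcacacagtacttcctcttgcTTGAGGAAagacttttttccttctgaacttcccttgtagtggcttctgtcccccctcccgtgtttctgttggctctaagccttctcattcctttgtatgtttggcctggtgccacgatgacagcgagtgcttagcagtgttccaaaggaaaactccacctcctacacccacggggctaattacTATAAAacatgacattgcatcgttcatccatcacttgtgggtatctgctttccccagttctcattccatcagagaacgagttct
Il6: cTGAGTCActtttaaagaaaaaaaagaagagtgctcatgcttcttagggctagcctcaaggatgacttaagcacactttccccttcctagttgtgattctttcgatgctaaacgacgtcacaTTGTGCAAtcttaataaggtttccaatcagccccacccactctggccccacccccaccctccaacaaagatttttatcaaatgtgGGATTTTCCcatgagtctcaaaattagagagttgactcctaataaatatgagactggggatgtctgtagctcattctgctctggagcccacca
Cxcl1: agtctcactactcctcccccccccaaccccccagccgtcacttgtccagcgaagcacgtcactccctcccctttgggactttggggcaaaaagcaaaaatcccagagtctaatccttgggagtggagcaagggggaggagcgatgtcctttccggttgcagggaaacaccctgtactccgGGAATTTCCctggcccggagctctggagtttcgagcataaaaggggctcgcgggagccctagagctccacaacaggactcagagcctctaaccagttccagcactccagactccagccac

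In the Ptgs2 window the capitals are C/EBP matches, TTGCGCAA at −69, which matches on both strands, and TTGGGGAA at −25, with positions given for the first base relative to the start. The Tnfsf18 window held the C/EBP match TTGAGGAA at −217 and TATAAA at −34. Il6 held the AP-1 match TGAGTCA at −249, the C/EBP match TTGTGCAA at −128 and the NF-kB match GGATTTTCC at −43, and Cxcl1 held the NF-kB match GGAATTTCC at −70. Ptges and Lcn2 each held 1 C/EBP match on the minus strand, at −198 and −216. Over the 6 windows, 5 held C/EBP, 2 NF-kB, 1 AP-1 and 1 the TATA box letters. The shares of all 32851 promoters of this length in the table were 40.7%, 3.73%, 7.81% and 13.6%, in the same order. Ptgs2, Tnfsf18, Ptges and Lcn2 had no match to the NF-kB letters in these windows, and Ccl7 had no window. A match describes letters only.

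Ptgs2 was lower at day 6 than at day 3 with either hairpin. The day 3 controls stood at log2 intensities of 11.07, 11.05 and 10.92 and the day 6 controls at 9.55, 9.33 and 9.50. In the knockdown arrays the values were 11.03, 11.13 and 11.14 at day 3 and 9.46, 9.38 and 9.59 at day 6. The days did not overlap with either hairpin, and the highest day 6 array lay far below the lowest day 3 array. Group means were 11.01 ± 0.08 and 9.46 ± 0.12 in controls (2.94-fold lower at day 6) and 11.10 ± 0.06 and 9.48 ± 0.11 in knockdown arrays (3.08-fold lower). Counted from the largest fall among 17860 genes, these differences ranked 4 and 5. Within a day the groups of the 2 hairpins overlapped.

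Ptges did not follow Ptgs2. Its log2 intensities were 6.74, 6.62 and 6.47 in day 3 controls and 6.74, 6.76 and 6.38 in day 6 controls. Knockdown arrays gave 6.69, 6.62 and 6.55 at day 3 and 6.78, 6.59 and 6.32 at day 6. All 4 groups overlapped. Day 6 minus day 3 was 0.021 in controls and −0.055 in knockdown arrays on the log2 scale, each smaller than the spread between replicates (pooled SD 0.176).

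**Figure D1:**
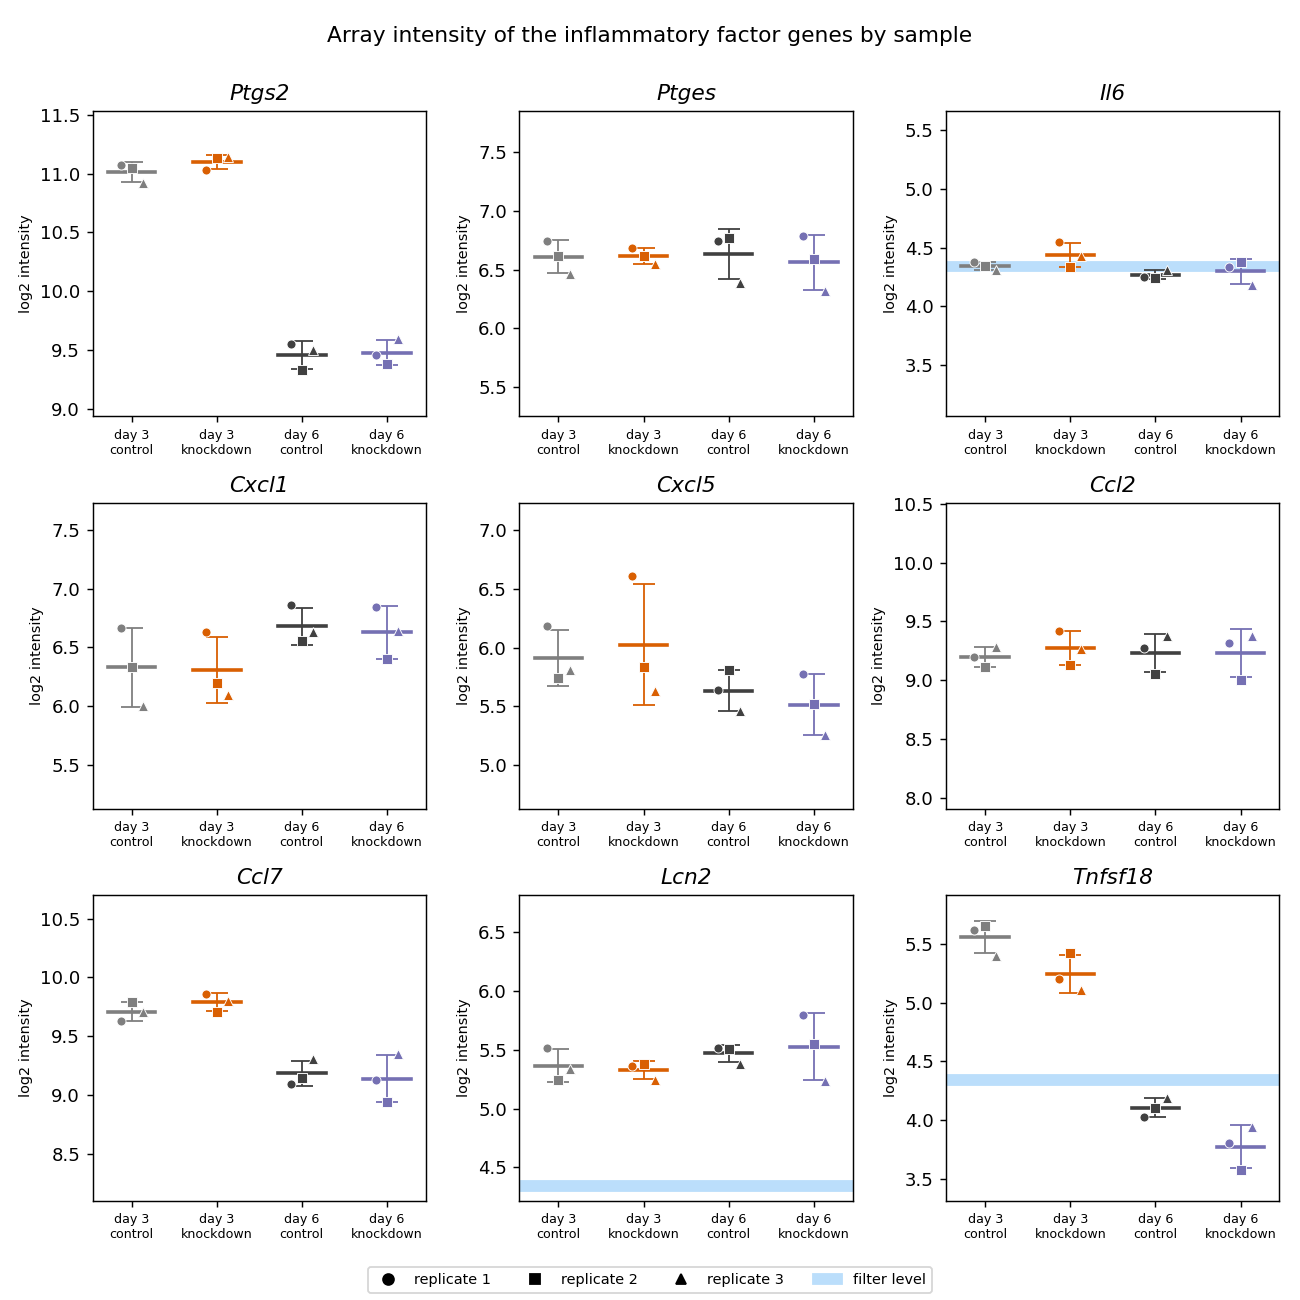
Log2 array intensity of the 9 measured members in every sample, 1 panel per gene, with replicate numbers as symbols, group means as thick lines, SD as error bars (n = 3) and the range of the arrays' filter levels (4.30 to 4.38) as a blue band where it falls inside the axis. Ptgs2, Tnfsf18 and Ccl7 have day 6 groups below both day 3 groups, and the other 6 members have overlapping days.

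Tnfsf18 was above the filter level at day 3 and below it at day 6. Day 3 controls stood at 5.62, 5.65 and 5.40 and day 6 controls at 4.03, 4.10 and 4.19. The knockdown arrays stood at 5.20, 5.42 and 5.11 at day 3 and at 3.80, 3.58 and 3.94 at day 6. Every day 6 array was below its own filter level, so only a bound holds: against the mean filter level of the day 6 arrays the day 3 mean was at least 2.28-fold higher in controls and at least 1.84-fold higher in knockdown arrays. The measured means were 5.56 ± 0.14 and 4.11 ± 0.08 in controls and 5.24 ± 0.16 and 3.77 ± 0.18 in knockdown arrays, and no fold or rank is given for them.

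Of the CC chemokine genes, Ccl7 was lower at day 6 and its neighbour Ccl2 was not. Ccl7 stood at 9.62, 9.79 and 9.71 in day 3 controls and at 9.10, 9.15 and 9.30 in day 6 controls. Its knockdown values were 9.85, 9.70 and 9.80 at day 3 and 9.12, 8.94 and 9.34 at day 6. The days did not overlap, and the day 6 means were 1.44-fold lower in controls and 1.57-fold lower in knockdown arrays, ranks 371 and 208 from the largest fall. Ccl2 stood at 9.20, 9.12 and 9.28 in day 3 controls and 9.27, 9.06 and 9.37 in day 6 controls. It read 9.42, 9.13 and 9.27 in day 3 knockdown and 9.32, 8.998 and 9.38 in day 6 knockdown arrays. All 4 groups of Ccl2 overlapped, with day differences of 0.037 and −0.041. Ccl2 and Ccl7 are next to each other on chromosome 11 in RefSeq's gene order, followed by Ccl11, Ccl12 and Ccl8.

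The CXC chemokine genes leaned in opposite directions and varied most among replicates. Cxcl1 read 6.67, 6.33 and 6.00 in day 3 controls and 6.86, 6.56 and 6.63 in day 6 controls. Its knockdown arrays read 6.63, 6.20 and 6.10 at day 3 and 6.85, 6.40 and 6.64 at day 6. The groups overlapped, but the day 6 array was the higher in 3 of 3 same-number pairs with either hairpin, by 0.19 to 0.63 in controls and 0.20 to 0.55 in knockdown arrays. Cxcl5 read 6.18, 5.74 and 5.81 in day 3 controls and 5.64, 5.81 and 5.46 in day 6 controls. In knockdown arrays it read 6.61, 5.84 and 5.63 at day 3 and 5.77, 5.52 and 5.25 at day 6. Its groups overlapped as well, and day 6 was lower in 2 of 3 control pairs and 3 of 3 knockdown pairs, with means lower by 1.21-fold and 1.43-fold. Both genes lie on chromosome 5, where Ppbp, Pf4, Cxcl3 and Cxcl15 stand between them in RefSeq's gene order.

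Il6 stayed at the filter level throughout. Day 3 arrays ranged from 4.31 to 4.38 in controls and from 4.34 to 4.55 in knockdown, and day 6 arrays from 4.25 to 4.31 in controls and from 4.18 to 4.38 in knockdown. A difference in Il6 was not detectable at these intensities. Lcn2 was between 5.25 and 5.52 in day 3 controls and between 5.38 and 5.52 in day 6 controls. In knockdown arrays it was between 5.24 and 5.38 at day 3 and between 5.23 and 5.80 at day 6. The day 6 groups of Lcn2 overlapped those of day 3, with differences of 0.10 and 0.20.

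Over the 9 members, 3 were lower at day 6 without overlap in controls and the same 3, Ptgs2, Tnfsf18 and Ccl7, in knockdown arrays, and 0 were higher. Groups did not overlap in 35.3% of all genes tested in controls and in 34.3% in knockdown arrays. Nothing is read from that count, since these comparisons chose the members. The median difference of the members was −0.074 in controls and −0.14 in knockdown arrays, beside 0.0097 and 0.0085 over all genes. Without replicate 1 of day 6, the difference was −1.60 and −1.61 for Ptgs2, −0.48 and −0.64 for Ccl7, 0.26 and 0.21 for Cxcl1 and −0.28 and −0.64 for Cxcl5, in controls and knockdown arrays. For Lcn2 it was 0.079 and 0.064. As these were bulk samples, fewer cells of a type and less RNA per cell cannot be told apart.

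**Figure D2:**
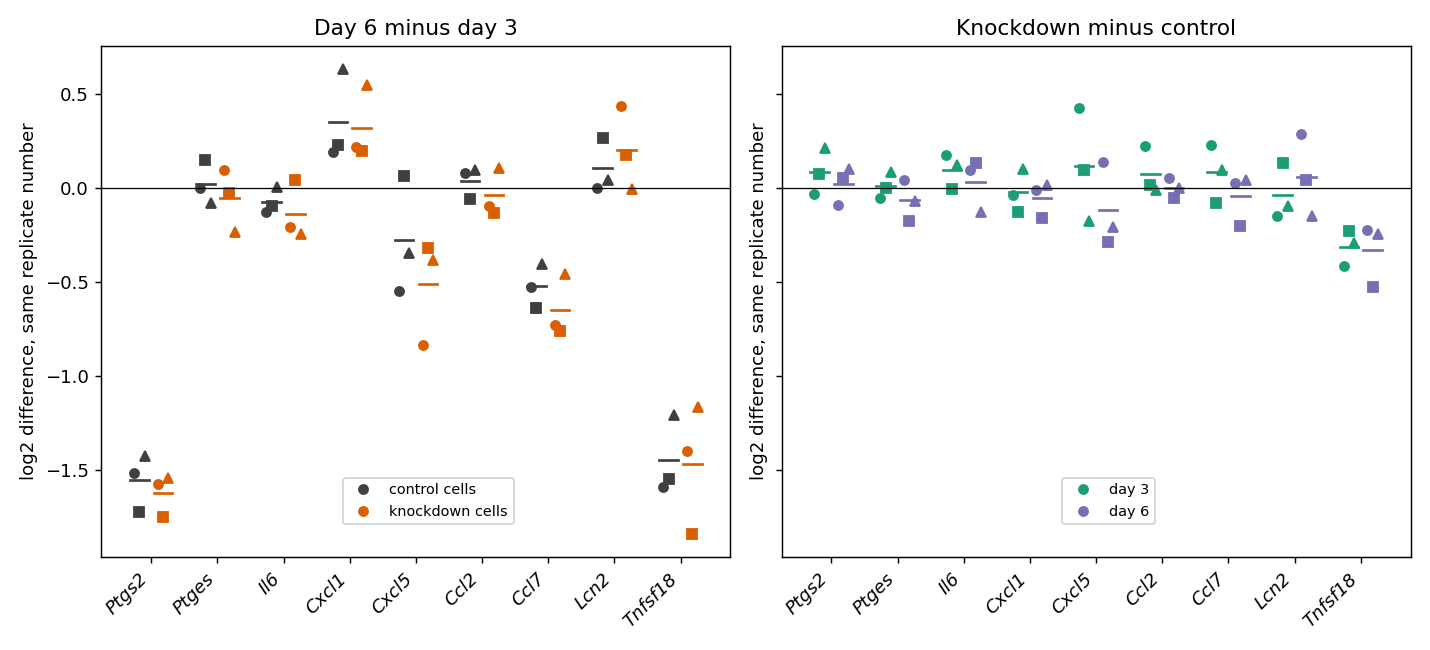
Log2 difference within each same-number pair of arrays for the 9 members, day 6 minus day 3 on the left and knockdown minus control on the right (circle, square and triangle for replicates 1, 2 and 3, lines for the difference of group means). Ptgs2 lies below −1 in every pair of days. The points of Tnfsf18 also lie below −1 there, and below 0 in all 6 pairs of hairpins. Its day 6 values were below the filter level, so its points that use day 6 give no size.

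None of the 9 members passed the test of the Chaf1a hairpin against the control. Chaf1a itself did not pass it either (limma's adjusted p = 0.726 at day 3 and 0.999 at day 6). At day 3, 0 of 9 passed limma's adjusted p of 0.05, where 0% of 17860 genes did and 1074 had an unadjusted p under 0.05. At day 6 again 0 of 9 passed, where 0.0392% of all genes did (7 genes, with 793 at an unadjusted p under 0.05), and averaged over both days 0 of 9, where 0% did and 989 had an unadjusted p under 0.05. With the replicate number as a block, the average over both days called 2 genes, neither a member: Car2, a carbonic anhydrase (log2 difference 1.10, limma's adjusted p = 0.00337), and Slc35f2 (0.67, adjusted p = 0.0348). Of the 9 members, 1 had an unadjusted p under 0.05 in each of the 3 comparisons, and it was Tnfsf18 each time. Its day 6 values were all below the filter level. The p-values of day 6 and, in part, of the average rest on such values. The average is also made of the other 2 comparisons, so the 3 are not separate results. Adjusted p-values of the members ran from 0.726 to 0.995 at day 3, from 0.948 to 0.999 at day 6 and from 0.465 to 0.999 for the average.

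For Tnfsf18 the knockdown arrays lay below the controls in 3 of 3 same-number pairs at each day. The difference was −0.31 on the log2 scale at day 3 (SE 0.107, 95% interval −0.55 to −0.081, limma's adjusted p = 0.726). Both day 6 groups were below the filter level, so no size is given for day 6 or for the average, which takes in the day 6 values. The groups overlapped at day 3 and, below the filter level, not at day 6. Not overlapping were 0 of 9 members at day 3, where 10.8% of all genes did not overlap, and 1 of 9 at day 6, where 10.6% did not. Without the interferon-high array, the day 3 difference was −0.40 (limma's adjusted p = 0.816).

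Intervals of the fit without the replicate block show how large a hairpin effect remains possible in that fit. With the block the SE was 0.0997 in place of 0.176 for Cxcl1, 0.145 in place of 0.2175 for Cxcl5 and 0.075 in place of 0.125 for Ptges. It was also smaller for Ccl2, Ccl7 and Lcn2, and slightly larger for Ptgs2, Il6 and Tnfsf18. The intervals below leave the shared replicate numbers out of account. For Ptgs2 the 95% interval ran from −0.084 to 0.26 at day 3 and from −0.15 to 0.19 at day 6. Ccl7 had intervals of −0.13 to 0.29 and −0.25 to 0.16, and Ccl2 of −0.17 to 0.32 and −0.25 to 0.24. The intervals of Cxcl5 were the widest, at −0.36 to 0.59 and −0.59 to 0.35. Cxcl1 had −0.41 to 0.36 and −0.44 to 0.33, Ptges −0.26 to 0.28 and −0.34 to 0.20, and Lcn2 −0.30 to 0.22 and −0.20 to 0.32. Without the interferon-high array, the day 3 differences of the other 8 members were between −0.065 (Lcn2) and 0.21 (Cxcl5), with limma's adjusted p between 0.891 and 0.997. Leaving out that array changed the day 6 minus day 3 difference of the knockdown from −1.62 to −1.61 for Ptgs2 and from −0.65 to −0.69 for Ccl7.

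Spread between replicates differed among the members, and in 6 of 9 at least 1 replicate number lay on the same side of its group mean in all 4 groups. Ptgs2, Il6 and Tnfsf18 had no such number. The share of all genes with such a number was not counted. Same-number arrays deviated together over all genes kept (r 0.137 to 0.373), so nothing particular to the members is read from that count. The pooled SD within groups was 0.323 for Cxcl5 and 0.258 for Cxcl1, above 98.9% and 97.3% of genes, where the median gene had 0.105. It was 0.0939 for Ptgs2. Replicate 1 was above its group mean in 4 of 4 groups for Ptges, Cxcl1, Cxcl5 and Lcn2. Replicate 3 was below it in 4 of 4 groups for Ptges, Cxcl5 and Lcn2, and in 3 of 4 for Cxcl1, whose replicate 2 was below it in 4 of 4. The CC chemokines differed from these: replicate 2 was below its group mean in 4 of 4 groups for Ccl2, and replicate 3 was above it in 4 of 4 for Ccl7.

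Genes whose profile over the 12 arrays was most like a member's were found by the root-mean-square difference of log2 values after each gene's own mean was taken off, among 15711 genes. For Ptgs2 the nearest were Cnn1, which encodes the smooth muscle protein calponin 1 (0.104), Osbp2 (0.191) and Fndc3c1 (0.203). Its nearest member was Tnfsf18, at 0.223, but both were chosen for their falls between the days, so nothing is read from that likeness. Nearest to Tnfsf18 were Syne1, a nuclear envelope protein (0.197), Pwwp3b (0.199) and Vcan, the matrix proteoglycan versican (0.209). Every day 6 value of Tnfsf18 was below the filter level, which limits its distances. Ccl7 was nearest to Bak1, a mitochondrial death protein (0.0592), followed by Ogfod1 and Dtna. Cxcl1 was nearest to Nuak2, a kinase (0.127), then Cnksr3 and Pnrc2, and Cxcl5 to Pclaf (0.174), then Mgst3 and Hoxd13. Nearest to Ptges were Zc4h2 (0.0766), Rab2b and Smg9, to Ccl2 Inppl1 (0.0663), Brat1 and Ptprcap, and to Lcn2 Zfp869 (0.0553), Wdr34 and Osbpl7. The measure describes likeness over these arrays only.

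In all, 7 lists of related genes were examined over the same days, with tests, since the rule that chose the members did not use their genes, although the lists were drawn up with earlier results of these data known. Of their 153 genes, 120 passed the filter. In controls 17 rose, 14 fell and 89 did not pass, and in knockdown arrays 15 rose, 19 fell and 86 did not pass. In controls 8 fell without day 3 replicate 2, day 6 replicate 2 or day 6 replicate 3, and 11 and 10 rose without day 3 replicate 3 and day 6 replicate 1. In knockdown arrays 12 fell without the interferon-high array, and 9 rose without day 6 replicate 1. With day 6 replicate 1 left out, 11 fell in controls and 17 in knockdown arrays. Over all genes tested, 6.99% rose and 10.6% fell in controls, and 7.46% rose and 10.5% fell in knockdown arrays. The comparisons of the hairpins, and of the hairpin effect between days, called 0 of the 120 genes with limma. Of the 14 genes of highest level, 2 in each list, hairpin differences ran from −0.18 to 0.41 at day 3 and from −0.34 (Ptx3) to 0.21 at day 6, with adjusted p of at least 0.829 and 0.462.

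Among 15 other genes of prostaglandin synthesis, transport and reception, 1 rose and 5 fell in controls, and 1 rose and 3 fell in knockdown arrays. Without the interferon-high array, which enters the shared estimate of spread, 0 rose in controls. Medians were 0.018 and −0.0060. Pla2g4a, which encodes the phospholipase A2 that releases arachidonic acid and is a neighbour of Ptgs2 on chromosome 1 in RefSeq, fell from 9.01 ± 0.19 to 8.27 ± 0.12 in controls and from 8.92 ± 0.14 to 8.14 ± 0.10 in knockdown arrays. Its log2 differences were −0.74 (SE 0.104, limma's adjusted p = 0.00053) and −0.78 (adjusted p = 0.00033). Both passed in all 24 alternatives. Slco2a1, the prostaglandin transporter, fell by −0.39 and −0.31, and Ptger4, a prostaglandin E2 receptor, by −0.39 and −0.53. Slco2a1 missed the threshold in controls without replicate 2 of every group (adjusted p = 0.0668) and in knockdown arrays without their day 3 replicate 1 (−0.27, adjusted p = 0.0510). In knockdown arrays it also missed the threshold when replicate 1, 2 or 3 was left out of every group (adjusted p up to 0.116). Ptger4 missed it in knockdown arrays without replicate 2 of every group (−0.50, adjusted p = 0.116), and its call in controls was lost without any 1 of 7 arrays, with limma's adjusted p up to 0.153 without day 6 control replicate 3 (−0.26). Ptgis, prostacyclin synthase, went the other way by 0.39 and 0.50 (adjusted p = 0.0489 and 0.0150), and those calls were lost without any 1 of 9 arrays in controls and of 3 in knockdown arrays, where 0 genes of the list rose without day 6 replicate 1.

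**Figure D3:**
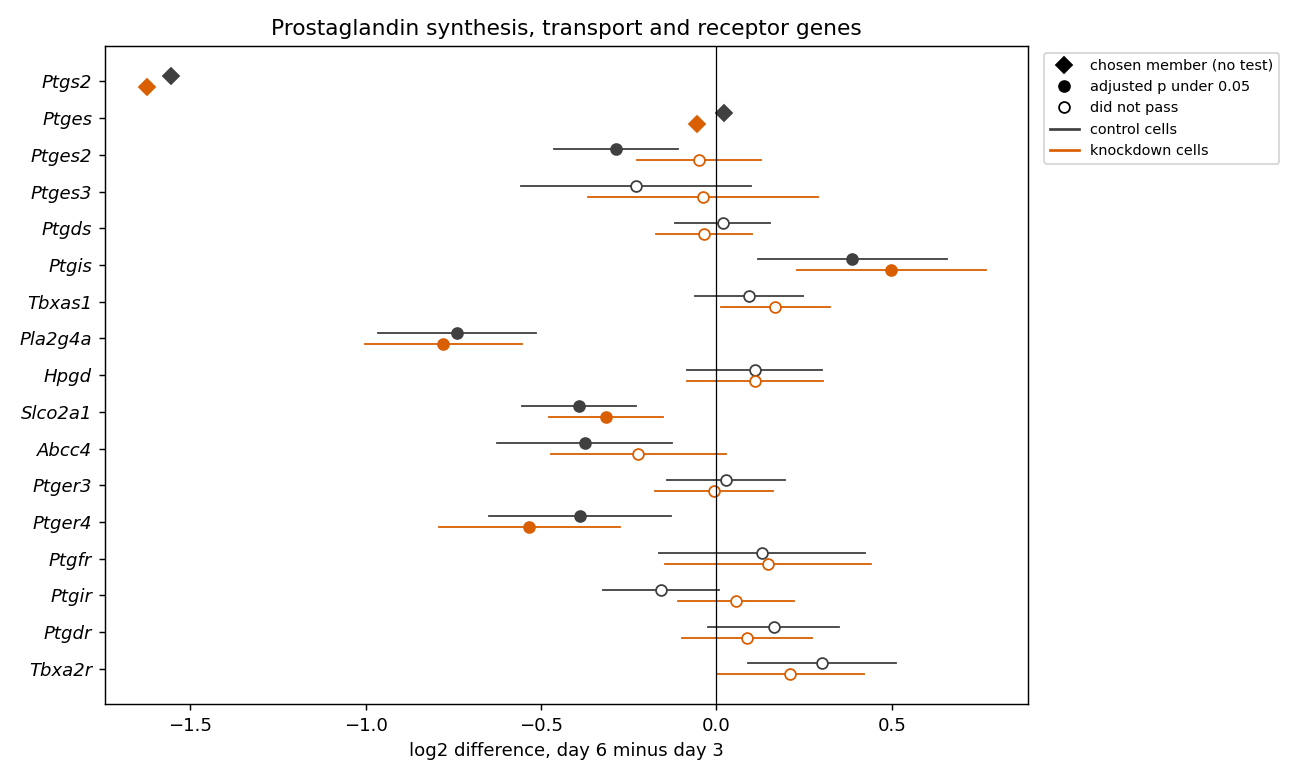
Log2 difference of day 6 minus day 3 for Ptgs2, Ptges and 15 other genes of prostaglandin synthesis, transport and reception in control and knockdown cells, with 95% intervals for the genes that were tested (filled where limma's adjusted p was under 0.05) and diamonds without intervals for the 2 chosen members. Ptgs2 and Pla2g4a lie farthest to the left with either hairpin, and Ptgis lies to the right.

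Of 25 other chemokine genes, 3 rose and 2 fell in either hairpin, with medians of 0.035 and 0.051. With the replicate number as a block, 5 rose in controls. Without day 6 replicate 1, 1 rose and 1 fell in controls and 2 rose and 1 fell in knockdown arrays. Cxcl16, a membrane-bound chemokine, fell from 8.31 ± 0.08 to 7.79 ± 0.05 in controls (log2 difference −0.53, limma's adjusted p = 0.00021) and from 8.53 ± 0.05 to 7.90 ± 0.07 in knockdown arrays (−0.63, adjusted p = 4.33e-05), and passed in all alternatives. Cxcl12, the ligand of CXCR4, rose by 0.83 and 0.73 (adjusted p = 0.0131 and 0.0248). Its call was lost in controls without day 6 replicate 1 (0.66, adjusted p = 0.0606), and in knockdown arrays without day 3 replicate 1 or 3 or day 6 replicate 1 or 2 (0.57 to 0.74, adjusted p up to 0.0923). Its pair differences in controls were 1.29, 0.79 and 0.42, highest in replicate 1. Cxcl11, an interferon-induced chemokine, rose by 0.50 in controls (limma's adjusted p = 0.0079), and its knockdown means were 4.96 at day 3 and 5.01 at day 6. In knockdown arrays Cxcl13, which draws B cells, rose by 0.48 (adjusted p = 0.0035) and Ccl11, eotaxin, by 0.41 (adjusted p = 0.0145). Control means of both were higher at day 6 as well, from 5.91 to 6.26 for Cxcl13 and from 5.59 to 5.90 for Ccl11. The call of Ccl11 in knockdown arrays was lost without their day 3 replicate 3 or day 6 replicate 2. That of Cxcl11 was lost without replicate 2 or 3 of every group (limma's adjusted p up to 0.140), and that of Cxcl13 without replicate 1 or 3 (up to 0.110). Ppbp, which lies beside Cxcl5, fell by −0.44 in controls (limma's adjusted p = 0.0277), a call lost without day 3 or day 6 replicate 1, day 3 replicate 3 or day 6 replicate 2. Its mean in day 6 controls was 4.40, near the filter level, which 2 of those 3 arrays reached, so the size of its fall is uncertain. Cxcl10, also induced by interferon, fell by −0.33 in knockdown arrays, where the interferon-high array had 5.93 and the other 11 arrays of the study 5.21 to 5.78. Without that array, 1 chemokine fell in knockdown arrays in place of 2.

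Among 18 other interleukin and colony-stimulating factor genes, 3 rose and 1 fell in controls and 1 rose and 3 fell in knockdown arrays. In controls 1 rose without day 3 replicate 2 or 3 or day 6 replicate 1 or 2, and 3 fell without day 3 replicate 1, while 5 fell in knockdown arrays without day 3 control replicate 1. Il34, a ligand of the CSF1 receptor, rose most in the list, from 7.01 ± 0.15 to 8.55 ± 0.06 in controls and from 7.14 ± 0.46 to 8.67 ± 0.17 in knockdown arrays (differences 1.54 and 1.53, limma's adjusted p = 0.00015 and 0.00013). It passed in all alternatives. Csf1, the other ligand of that receptor, fell by −0.30 and −0.38. In controls Csf1 missed the threshold when replicate 1, 2 or 3 was left out of every group (adjusted p up to 0.113), and in knockdown arrays without replicate 2 (adjusted p = 0.0549). Il1rn, the interleukin 1 receptor antagonist, rose by 0.57 in controls (adjusted p = 0.0367) and Ctf1, cardiotrophin 1, by 0.30 (adjusted p = 0.0311), and both calls were lost without any 1 of those 4 control arrays (adjusted p up to 0.154). In knockdown arrays Tslp, which encodes an epithelial cytokine, fell by −0.58 (adjusted p = 0.0061) and Clcf1, a cytokine of the interleukin 6 family, by −0.51 (adjusted p = 0.0078), calls that held with any single array left out. Both were lost without replicate 3 of every group (limma's adjusted p = 0.0884 and 0.0571), and Clcf1 also without replicate 2 (adjusted p = 0.111).

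Of 11 other TNF superfamily ligand genes none fell with all arrays, and Eda did in controls without day 3 replicate 1 (−0.42, limma's adjusted p = 0.0455, against 0.153 with it). Tnfsf9 rose by 0.39 and 0.40, with the call lost in controls without day 3 replicate 1 (0.35, adjusted p = 0.0517) or day 6 replicate 2 (0.29, adjusted p = 0.0582) and in knockdown arrays without replicate 2 or 3 of every group (adjusted p up to 0.10), and Tnfsf11, the osteoclast factor RANKL, rose by 0.45 in knockdown arrays (adjusted p = 0.0158), lost without day 3 replicate 2 or day 6 replicate 1 or 3 of these arrays (adjusted p up to 0.0592).

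Receptor genes held 4 rises and 2 falls in controls and 3 of each in knockdown arrays among 18 genes. With the replicate number as a block 4 fell in controls, and without the interferon-high array 1 fell in knockdown arrays. Il6st, the gp130 subunit shared by interleukin 6 and LIF receptors, rose by 0.59 (limma's adjusted p = 0.00021) and 0.51 (adjusted p = 0.00049), and passed in all alternatives. Lifr, the LIF receptor, rose by 0.52 and 0.40, and Osmr, the oncostatin M receptor, by 0.55 and 0.34. Lifr passed in all alternatives in controls and missed the threshold in knockdown arrays without replicate 1 or 3 of every group (adjusted p up to 0.104). Osmr missed it in controls without replicate 2 of every group (adjusted p = 0.0540). Il1rl2, a receptor of the interleukin 1 receptor family, fell by −0.56 and −0.70. Its call in controls was lost without day 3 replicate 1 or 2 or day 6 replicate 2 or 3 (−0.49 to −0.46, adjusted p up to 0.121). In knockdown arrays its call was lost without replicate 2 of every group (adjusted p = 0.0745). Tlr3, a receptor of double-stranded RNA, fell by −0.47 in knockdown arrays (adjusted p = 0.0178), lost without the interferon-high array, day 3 replicate 3 or day 6 replicate 2 (adjusted p up to 0.0744). Without day 6 replicate 1, the receptors held 4 rises and 2 falls in controls and 2 rises and 3 falls in knockdown arrays.

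Of 23 genes of NF-kB subunits, inhibitors and targets and of C/EBP factors, 1 rose and 3 fell in controls, and 3 rose and 7 fell in knockdown arrays. Without the interferon-high array, 2 rose and 3 fell in the knockdown comparison and 2 rose in controls, and with the replicate number as a block 2 rose in controls. Without day 6 replicate 1, 1 rose and 6 fell in knockdown arrays. Vcam1, an adhesion molecule, fell from 10.64 ± 0.02 to 9.86 ± 0.07 in controls (−0.78, limma's adjusted p = 8.56e-06) and from 10.61 ± 0.02 to 9.76 ± 0.08 in knockdown arrays (−0.85, adjusted p = 3.77e-06). Zfp36, which encodes a protein that speeds the decay of cytokine mRNAs, rose by 0.76 in controls (adjusted p = 0.00136) and 0.52 in knockdown arrays (adjusted p = 0.0122). Vcam1 passed in all alternatives with either hairpin, and Zfp36 did in controls. In knockdown arrays Zfp36 missed the threshold without replicate 1 (0.37) or 2 (0.56) of every group, with adjusted p up to 0.10. In controls Nfkbib, an inhibitor of NF-kB, fell by −0.27 (adjusted p = 0.0087) and Icam1, an adhesion molecule, by −0.27 (adjusted p = 0.0485), and the call of Icam1 was lost without any 1 of 9 arrays. That of Nfkbib was lost when replicate 1, 2 or 3 was left out of every group (limma's adjusted p up to 0.0922). In knockdown arrays Rel, an NF-kB subunit, fell by −0.42 (adjusted p = 0.0148), lost without the interferon-high array (adjusted p = 0.0594) or day 6 replicate 2, and Tnfaip2 by −0.47 (adjusted p = 0.0416), lost without any 1 of 7 arrays. The list therefore held genes that rose and genes that fell, and its medians were −0.035 and −0.045.

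Acute-phase genes, the group to which Lcn2 is often counted, held 4 rises and 1 fall in controls and 2 rises and 1 fall in knockdown arrays among 10 genes. Without day 6 replicate 1 there was 1 rise in controls. Cp, the copper carrier ceruloplasmin, rose by 1.11 and 1.02 (limma's adjusted p = 0.00022 and 0.00034). Lbp, the lipopolysaccharide-binding protein, rose by 0.98 and 1.12, with the call lost in controls without day 6 replicate 1 (0.79, adjusted p = 0.0504) and in knockdown arrays without replicate 3 of every group (adjusted p = 0.0565). Ptx3, a secreted pentraxin, fell from 9.44 ± 0.08 to 8.54 ± 0.13 in controls and from 9.26 ± 0.05 to 8.20 ± 0.13 in knockdown arrays (−0.89 and −1.06, adjusted p = 3.28e-05 and 8.07e-06). Cp and Ptx3 passed in all alternatives with either hairpin. Serpina3n rose by 1.13 in controls (adjusted p = 0.0315), a call lost without any 1 of the day 3 control arrays or day 6 replicate 1 or 2 (adjusted p up to 0.132). Pair differences in controls were highest in replicate 1 for Serpina3n (1.68, 1.00 and 0.71) and for Lbp (1.42, 0.86 and 0.66).

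**Figure D4:**
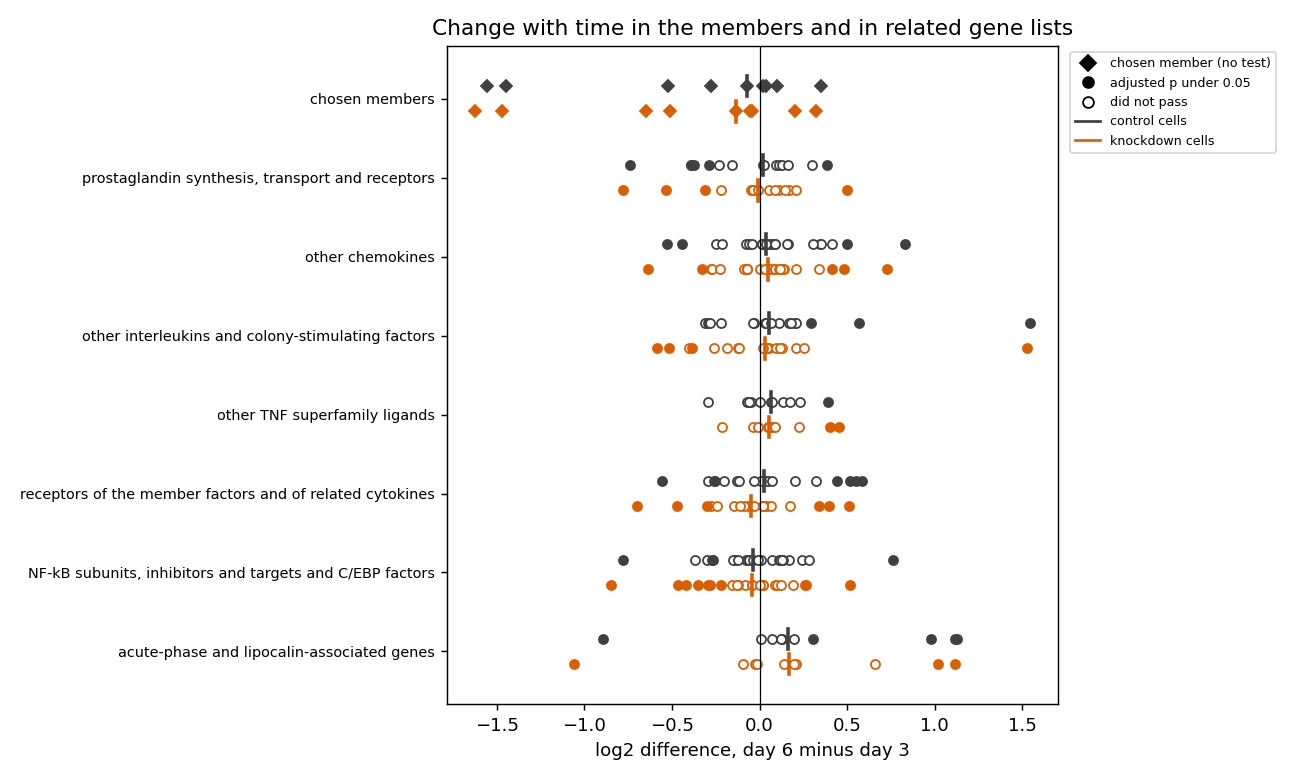
Log2 difference of day 6 minus day 3 for the 9 members and for each gene of 7 related lists, in control and knockdown cells, filled where limma's adjusted p was under 0.05, open where it was not, with vertical bars at the medians. The members spread from −1.62 to 0.35, Il34 is the rightmost point, and each list but the TNF ligands holds filled points on both sides of 0.

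Other cell types that make these factors were checked by marker genes. Of 14 macrophage and leukocyte markers 13 passed the filter, and their mean log2 level was 5.43 to 5.60 in day 3 controls, 5.45 to 5.68 in day 3 knockdown, 5.25 to 5.32 in day 6 controls and 5.19 to 5.35 in day 6 knockdown arrays. Cd68, a lysosomal protein abundant in macrophages, fell from 8.90 to 7.70 in controls and from 9.09 to 7.86 in knockdown arrays (limma's adjusted p = 9.56e-07 and 5.39e-07), and Itgam fell in knockdown arrays (−0.50, adjusted p = 0.0060). The other listed leukocyte genes did not pass. Ptprc, the pan-leukocyte antigen CD45, reached the filter level on 1 of 12 arrays, and Adgre1, the macrophage antigen F4/80, had group means between 4.13 and 4.40, at the filter level. The part of these markers in the lower Ptgs2, Ccl7 and Tnfsf18 at day 6 was not tested. Of 8 mast cell markers 1 passed the filter, Kit, which rose by 0.32 in controls (limma's adjusted p = 0.0486) and 0.45 in knockdown arrays (adjusted p = 0.0090), and 6 never reached its level. Of 7 endothelial markers that passed the filter, Kdr rose with either hairpin (1.00 and 1.25), as did Cdh5 (0.40 and 0.51), and the other 5, Pecam1, Tek, Tie1, Esam and Cldn5, did not pass the test. Of 5 keratinocyte markers, Krt10 rose in knockdown arrays (0.21, adjusted p = 0.0354). Of 10 fibroblast markers, Pdgfrb rose from 8.39 to 9.50 in controls and from 8.54 to 9.45 in knockdown arrays (adjusted p = 0.00123 and 0.00375), with pair differences highest in replicate 1 (1.67 and 1.35), and the other 9 did not pass.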

How the data were processed

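The deposited values are array intensities on a linear scale, from 4.71 to 13421, to which the authors applied RMA, and the submitters' processing notes name Affymetrix Expression Console, version 1.3.0.187, as the software. Scan date, batch, genome build and RMA version were not given in the sources used here. Their log2 was taken. Of 41345 deposited probe sets, 23521 named 1 gene, 1814 several and 16010 none, by the platform annotation, and 23328 had a gene ID in the RefSeq table. For 1082 genes with several probe sets the one with the highest mean stood for the gene. Array medians were 39.5 to 43.3, Pearson's r within groups was 0.991 to 0.995, and the number of arrays limits the precision.

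Genes at or above their array's 30th percentile in at least 3 arrays were fitted with limma 3.58.1 (R 4.3.3), with 4 group means, 8 residual and 4.37 prior degrees of freedom, two-sided, Benjamini-Hochberg adjustment over 17860 genes and a threshold of 0.05. The procedure was tested on simulated data with independent noise for each gene and array. That noise lacked the deviations shared by same-number arrays. Plots used Python 3.11.15 and matplotlib 3.10.9. The groups share replicate numbers, and all 12 same-number pairs of arrays in compared groups deviated together (r 0.137 to 0.373, against −0.28 to −0.012 for other pairs), so a fit with the number as a block was also made. Other alternatives changed the filter, the normalisation, an offset of 16, array weights, a trended prior, the groups fitted and the arrays left out.

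Members and lists were chosen with earlier results of these data known. The rule for named genes took all members, up to 4 genes past the threshold per list and comparison by size of difference (the 2 of highest level where fewer than 2 passed), the 3 genes most like each member, and Chaf1a. The 24 alternatives include 15 that leave out arrays.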

Additional observations from a re-analysis of the deposited data

How the results depend on the processing

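No member passed the test of knockdown against control at day 3, or at day 6 in any of the 24 alternatives, or averaged over both days in the 23 that give an average, where limma's lowest adjusted p was 0.305. Il6 had no value under the stricter filter. Tnfsf18 kept its negative difference in those run, and of the other members' hairpin differences, none of which passed, many lay close enough to 0 to change sign. With array weights the day 3 difference of Cxcl1 was 0.067 and the average of Lcn2 was −0.017, and with an offset of 16 the average of Cxcl5 was 0.0051. With arrays left out, the day 3 differences ranged from −0.19 to 0.15 for Cxcl1, −0.18 to 0.31 for Cxcl5, −0.13 to 0.035 for Lcn2 and −0.063 to 0.075 for Ptges. At day 6 they ranged from −0.091 to 0.11 for Ccl2, −0.15 to 0.051 for Ccl7, −0.16 to 0.062 for Cxcl1, −0.25 to 0.010 for Cxcl5, −0.020 to 0.11 for Il6, −0.077 to 0.21 for Lcn2, −0.19 to 0.056 for Ptges and −0.048 to 0.074 for Ptgs2. The averages ranged from −0.013 to 0.095 for Ccl2, −0.037 to 0.099 for Ccl7, −0.12 to 0.046 for Cxcl1, −0.15 to 0.095 for Cxcl5, −0.058 to 0.084 for Lcn2, −0.091 to 0.032 for Ptges and −4.83e-05 to 0.11 for Ptgs2. The cause of these changes was not tested.

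Over all genes, limma's count at day 6 was 7, and 2 when only the 2 groups compared were fitted. It was 0 to 8 with arrays left out, with 0 without replicate 2 or replicate 3 of every group. The count for the average was 0, and 3 with an intensity trend, 3 with array weights, 4 with an offset of 16, 2 with the replicate block and 0 to 2 with arrays left out. Beside these and the list counts given above, the block moved no count by over 1.5 times and changed no call of a named gene. From day 3 to day 6 the counts were 3140 in controls and 3200 in knockdown arrays, with 1072 to 3170 and 1068 to 3388 when arrays were left out, lowest without replicate 3 of every group, where fewer samples were fitted. The difference of the hairpin effect between days called 0 genes (910 at an unadjusted p under 0.05), and 0 to 2 with arrays left out. Of 430 alternative values of the members' day differences, 425 moved by less than the SD within groups. The others were Il6 in knockdown arrays without replicate 2 of every group (−0.23), and values of Tnfsf18. For Tnfsf18 they came with the offset in either hairpin and, in knockdown arrays, without replicate 2 or 3 of every group. No size is given for Tnfsf18, whose day 6 values were below the filter level. Of 50 calls over time of the named genes of the related lists, 16 held in every alternative and 34 were lost in at least 1, 19 of them without a single array. Signals at or below the filter level limit Il6 and, at day 6, Tnfsf18. Those of Ppbp in day 6 controls, near that level, limit its difference there.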

Other observations

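Mxd3, which encodes a partner of the transcription factor Max, had the profile nearest to that of Il6. Its log2 intensity minus that of Il6 was 1.84 ± 0.016 (mean and SD over the 12 arrays), from 1.80 to 1.85, and the root-mean-square difference of the centred profiles was 0.0158, where the next gene, Wdr5, had 0.0431. Il6 was at the filter level on these arrays, Mxd3 was picked as the nearest of 15711 genes, and no test was made. Such distances depend on a gene's own spread, and Il6 had the smallest pooled SD of the members (0.0787, against 0.323 for Cxcl5). Distances are therefore not compared between members.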
